A study of Arabidopsis thaliana with 3 samples.

Results

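Actin filaments are the tracks along which a pollen tube moves its vesicles and organelles, and LIM proteins of the plant kind bind those filaments and gather them into cables. The 7 genes described here are the actins ACT11 and ACT12, the pollen LIM genes PLIM2a and PLIM2b, and the LIM genes WLIM1, WLIM2a and WLIM2b, known mainly from vegetative tissue. They were taken by symbol from the array's annotation, where each had 1 probe set that names it alone, out of 13350 genes with such a probe set. On this array each gene is read by a probe set, several short oligonucleotides that together give 1 signal.

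The tissues compared were germinating pollen with pollen tubes (2 arrays) and seedlings (1 array), both of the unmodified Arabidopsis thaliana accession Col-0. The pollen was shed from opened flowers and incubated at 25°C for 6 h with 13.5% sucrose in the medium, and about 80% of it germinated. Seedlings were taken whole with their roots, at the stage of the first rosette leaves, so they mix many cell types. Each Affymetrix ATH1 array received label made from 10 µg of total RNA. The labels give seedlings 18 h of light and 6 h of dark, whereas the design text gives 16 h and 8 h, and no plant ages are stated. No source states that separate plants gave the RNA of each pollen array. A p-value here thus reflects the spread between 2 arrays alone, and that spread may be technical. The fit shared it across probe sets, so a standard error (SE) below is not the spread of a gene's own 2 signals.

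Actin in flowering plants is made from a small gene family with a vegetative class (ACT2, ACT7 and ACT8) and a reproductive class, to which ACT11 and ACT12 belong. Plant LIM proteins carry a pair of zinc-binding LIM domains and bundle actin filaments directly. In Arabidopsis the PLIM genes are known from pollen and the WLIM genes from most other organs, and bundling by PLIM proteins is known to be sensitive to pH.

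Markers of pollen and of green tissue followed the labels, whereas the few root markers, dim in seedlings, did not. Of 10 marker genes of the pollen vegetative cell, 8 were measured, with summed signals of 114303 and 108192 on the pollen arrays against 55.7 on the seedling array. Of 8 marker genes of green tissue, 5 were measured, with sums of 166 and 191 in pollen against 29087 in seedlings. The sperm cell list had 1 of 5 genes measured, at 892 and 811 in pollen against 2.35 in seedlings. The root list had 2 of 5 measured, with sums of 234 and 157 in pollen against 45.6 in seedlings, although roots were included in the seedling sample. In seedlings both lay under the pooled median signal of 42.3, at 22.0 and 23.6, so they are a weak check of the label. The tapetum list had 2 of 5 genes measured, none above 49.0 in pollen. Their sums were 23.7 and 88.0 in pollen against 3.04 in seedlings. The 4 measured genes of other flower organs, of 6 listed, reached at most 131 in pollen. Their sums were 310 and 290 in pollen against 195 in seedlings. Most of the array is set to one level by the authors' scaling, so every value is relative to the rest of its array. The spiked control transcripts were brighter in pollen than in seedlings, by 5.25-fold on array 1 and by 4.69-fold on array 2, and scaling to them turns the share of calls that are higher in pollen to 10.7%, against 41.1% as deposited. With that scaling log2 differences shift by a median of -1.79 over all probe sets, and scaling to the 75th percentile shifts them by 0.40 and gives 53.1%. Because whole tissues were measured, fewer cells of a type and less RNA per cell cannot be told apart.

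Germinating pollen carried far more signal from the reproductive actins, the pollen LIM genes and WLIM2a, and less from WLIM1 and WLIM2b. With limma and Benjamini-Hochberg adjustment over all probe sets tested, 5 of the 7 genes were higher in pollen and 2 were lower. Of all 14812 probe sets tested, 22.1% were called higher in pollen and 31.7% lower, together 53.8%. The median log2 difference, pollen minus seedlings, was 3.52 over the 7 genes (the value of WLIM2a) and -0.61 over all probe sets tested. A floor of 42.3, the pooled median signal, had to be exceeded in seedlings, or else on each pollen array, for a probe set to be tested. All 7 genes were tested. The same filter shaped the shares over all probe sets. With no filter, 2627 of 22746 probe sets were called higher in pollen and 3161 lower. ACT12, PLIM2a, PLIM2b and WLIM1 were admitted only by the tissue in which they were high, so they had to differ and their calls lend no support to a pattern.

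**Figure D1:**
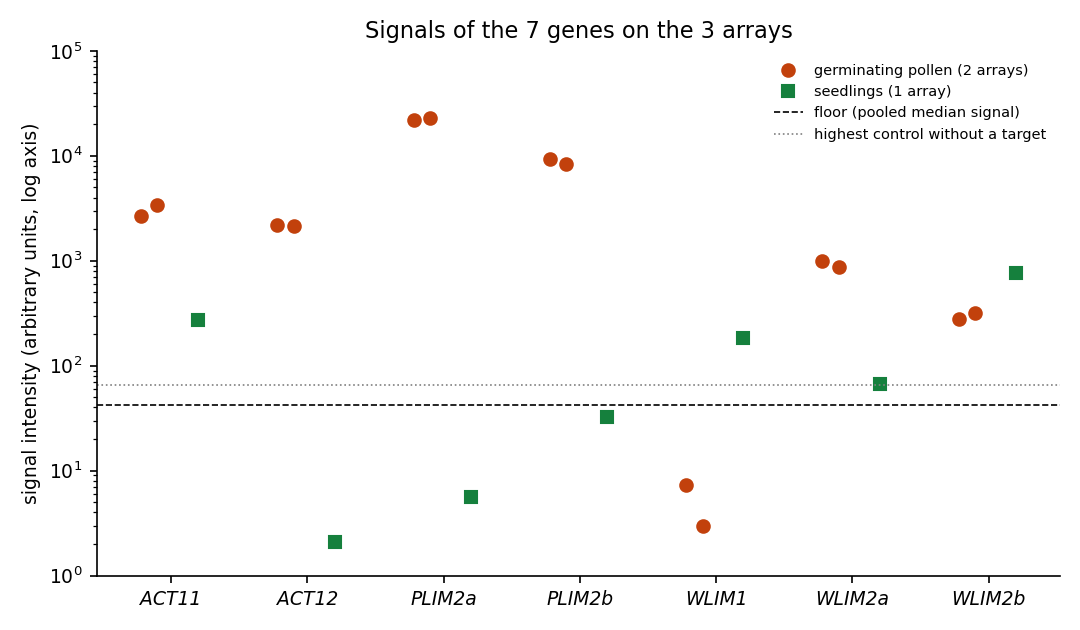
Signal intensity (log axis, arbitrary units) of each gene on the 2 germinating pollen arrays (circles) and the seedling array (square), with the floor of 42.3 and the brightest of the controls that have no target, 65.7 on pollen array 2. The pollen circles lie above the seedling square for ACT11, ACT12, PLIM2a, PLIM2b and WLIM2a and below it for WLIM1 and WLIM2b.

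ACT11, a reproductive-class actin (AT3G12110), had signals of 2695 and 3374 in germinating pollen against 272 in seedlings. Both pollen arrays exceeded the seedling array, by 9.90-fold and 12.4-fold. The seedling signal stood well above the floor, so the transcript was measured in both tissues. The log2 difference was 3.40 ± 0.17 (SE; limma adjusted p = 0.000436), and 7.18% of tested probe sets had a larger one. The SD of the pollen signals was 15.8% of their mean (n = 2), the widest relative spread of the 5 genes that were higher in pollen.

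ACT12, the other reproductive actin (AT3G46520), had signals of 2169 and 2160 in germinating pollen, against 2.10 in seedlings. The pollen arrays nearly coincided and the seedling signal lay under the floor. Its geometric mean in pollen was 51.1-fold above that floor, and so at least that far above seedlings. The log2 difference was 7.02 ± 0.14 (SE; limma adjusted p = 3.91e-05). The log2 scale has an offset of 14.7 added to every signal, which understates the change of dim genes. In the seedling, ACT11 was well above the floor and ACT12 was below it. On the seedling array ACT12 also lay under the highest signal of a control without a target, 14.3.

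Because a ratio of 2 probe sets on 1 array does not depend on how the array was scaled, its change between tissues can be read even though its size cannot. The ratio of ACT12 to ACT11 was 0.805 and 0.640 on the pollen arrays against 0.00770 on the seedling array. With the dim seedling signal raised to the floor, the ratio was at least 4.62-fold higher in pollen. The change exceeded the spread between the pollen arrays, whose log2 ratios had an SD of 0.23 (n = 2). No test was made of any such ratio, since 2 arrays against 1 cannot give an exact permutation p below 0.333.

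The vegetative actins ACT2, ACT7 and ACT8 had no probe set that names them alone and were not analysed here. The array's own actin controls, whose gene is not named, stood in for a comparison. The middle control of the newer set had 150 and 210 in germinating pollen against 2170 in seedlings, so that the seedling was brighter than both pollen arrays. The ratio of ACT11 to this control was 17.9 and 16.1 in pollen against 0.125 in seedlings, 135-fold higher in pollen. The ratio of ACT12 to it was at least 625-fold higher in pollen, with the seedling signal of ACT12 raised to the floor. The 3' control of that set had 51.9 and 10.4 in pollen against 1723 in seedlings. Its 5' control had 9.10 and 21.6 against 1117. Of the 6 actin control probe sets, 1 was brighter in pollen, the older 5' control with 292 and 339 in pollen against 199 in seedlings. Ratios were formed to the newer set only. Over the older 5' control both actins would change by less than they did alone, so the folds above depend strongly on the control used. The middle control was picked after its values were seen, and the controls were not part of the test.

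PLIM2a (AT2G45800), a pollen LIM gene whose protein bundles actin filaments, had signals of 22021 and 22964 in germinating pollen against 5.63 in seedlings. The tissues did not overlap and the seedling signal was under the floor and under that array's highest control without a target. The geometric mean in pollen was 531-fold above the floor and 342-fold above the highest such control on any array, 65.7. The log2 difference was 10.11 ± 0.09 (SE; limma adjusted p = 8.55e-06), and 0.297% of tested probe sets had a larger one. The SD of the pollen signals was 2.97% of their mean (n = 2).

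PLIM2b (AT1G01780), a paralogue of PLIM2a, had signals of 9244 and 8258 in germinating pollen, against 32.2 in seedlings. Its seedling signal was under the floor but above the 14.3 of the highest control without a target on that array, unlike PLIM2a and ACT12. The pollen geometric mean was 206-fold above the floor. The log2 difference was 7.54 ± 0.11 (SE; limma adjusted p = 1.86e-05). The ratio of PLIM2a to PLIM2b was 2.38 and 2.78 in pollen against 0.175 in seedlings. Both seedling signals were under the floor, so the seedling ratio cannot be read. PLIM2c, the remaining pollen LIM gene on the list of related genes, had no probe set that names it alone and was not analysed here.

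**Figure D2:**
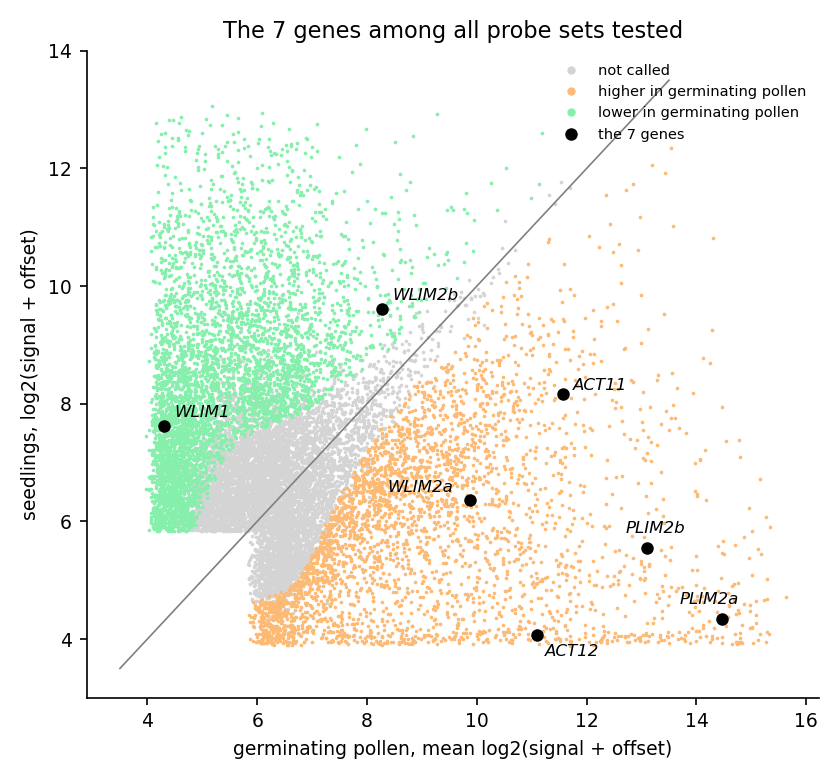
Each point is 1 of the 14812 probe sets tested, placed by its mean log2(signal + 14.7) on the 2 germinating pollen arrays and by its value on the seedling array, and coloured by call. The 7 genes are black points: 5 lie among the probe sets higher in pollen and WLIM1 and WLIM2b among those lower in pollen.

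The 3 WLIM genes did not move as one group. WLIM2a was called higher in pollen, and WLIM1 and WLIM2b were called lower. Their median log2 difference, pollen minus seedlings, was -1.34, the value of WLIM2b.

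WLIM2a (AT2G39900), a LIM gene placed in the vegetative class, had signals of 995 and 865 in germinating pollen against 67.5 in seedlings. Both pollen arrays exceeded the seedling array, by 14.8-fold and 12.8-fold. All 3 signals were above the floor, and the seedling signal was above the 14.3 of the highest control without a target on its array. The log2 difference was 3.52 ± 0.17 (SE; limma adjusted p = 0.000411).

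WLIM2b (AT3G55770), its paralogue, had signals of 276 and 314 in germinating pollen, against 769 in seedlings. It was the only one of the 3 WLIM genes well above the floor in both tissues and lower in pollen, and the seedling signal was 2.78-fold and 2.45-fold that of the pollen arrays. The log2 difference was -1.34 ± 0.16 (SE; limma adjusted p = 0.00467), and 62.8% of tested probe sets had a larger one. The difference was thus near the middle of the array, where the median of all probe sets was -0.61.

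WLIM1 (AT1G10200), also of the vegetative class, had signals of 7.32 and 2.95 in germinating pollen, against 183 in seedlings. Both pollen signals lay under the floor, and also under the brightest control with no target of the same array (47.1 and 65.7). The seedling signal was 4.32-fold above the floor and 2.78-fold above the higher of those controls. The log2 difference was -3.32 ± 0.37 (SE; limma adjusted p = 0.00366), and the adjusted p was 0.0323 when no filter on low signals was applied. The pollen arrays differed from each other by 1.31 log2 units without the offset, beside a median gap of 1.15 over the dimmest 7582 probe sets.

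The change of WLIM2a against WLIM2b does not depend on array scaling, and all 6 signals behind it were above the floor. The ratio of WLIM2a to WLIM2b was 3.60 and 2.75 in germinating pollen against 0.0877 in seedlings. On both pollen arrays WLIM2a gave the brighter signal, and on the seedling array WLIM2b did. The ratio was 35.9-fold higher in pollen, a log2 change of 5.17 against an SD of 0.27 between the pollen arrays (n = 2). Which of the genes has more transcript in a tissue cannot be told, since probe sets differ in brightness per transcript.

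Pollen to vegetative LIM ratios were formed for each PLIM2 gene over each WLIM gene on each array, 6 ratios in all. Every one was higher on both pollen arrays than in seedlings. All 6 share the numerators PLIM2a and PLIM2b, which were tested only through pollen, where they were high. The ratios are thus not independent, and their shared direction lends no support to a pattern. The smallest change was that of PLIM2b over WLIM2a, at 9.29 and 9.55 in pollen against 0.477 in seedlings. With signals raised to the floor it was at least 15.0-fold higher in pollen. PLIM2a over WLIM2a was 22.1 and 26.6 in pollen against 0.0834 in seedlings, at least 38.6-fold higher. Both of these ratios have a denominator that was itself higher in pollen.

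Over WLIM2b, the PLIM2b ratio was 33.4 and 26.3 in pollen against 0.0418 in seedlings, at least 539-fold higher. The PLIM2a ratio was 79.6 and 73.0 in pollen against 0.00732 in seedlings, at least 1387-fold higher. Over WLIM1, whose pollen signals were under the floor, the PLIM2b ratio was at least 892-fold and the PLIM2a ratio at least 2297-fold higher in pollen. The ratio over the sum of the 3 WLIM signals was 17.2 and 19.4 in pollen against 0.00552 in seedlings for PLIM2a. For PLIM2b it was 7.23 and 6.99 in pollen against 0.0316 in seedlings.

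**Figure D3:**
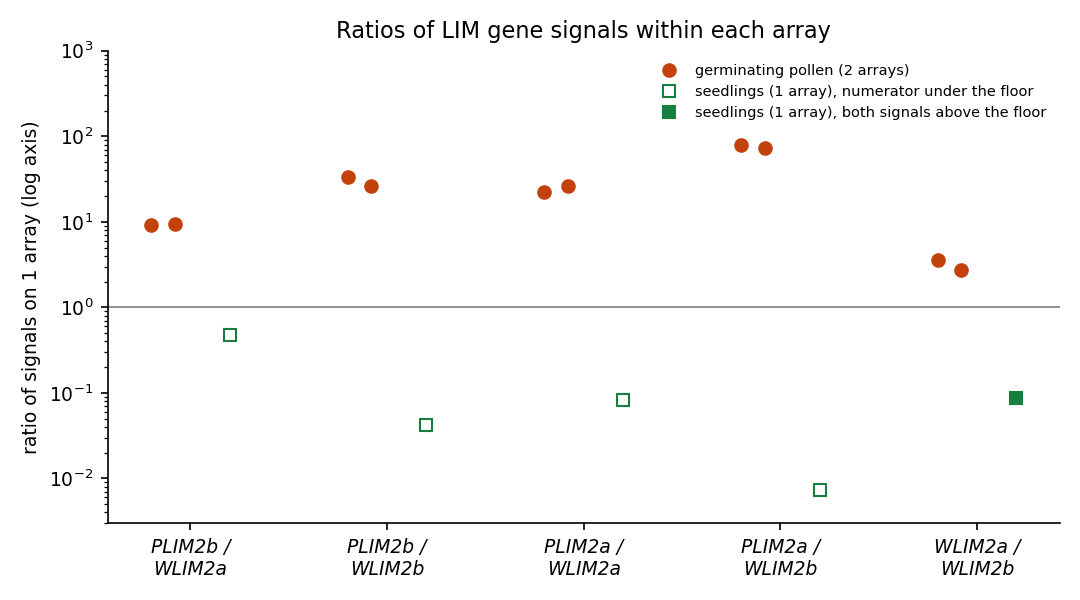
Ratio of the signals of 2 LIM genes on the same array (log axis) for the 2 germinating pollen arrays (circles) and the seedling array (square; open where the numerator was under the floor). The pollen circles lie above 1 and the seedling squares below 1 for all 5 ratios shown, including WLIM2a over WLIM2b at 3.60 and 2.75 against 0.0877.

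Scaling to the spiked controls made every pollen to seedling difference more negative. ACT11 was then 2.23-fold higher in pollen (log2 difference 1.15, limma adjusted p = 0.0191) and WLIM2a 2.77-fold higher (1.41, adjusted p = 0.00459). PLIM2b was 54.7-fold higher, its seedling signal of 93.7 then lying above the floor of 35.9. In pollen PLIM2a was 368-fold and ACT12 35.4-fold above that floor. WLIM2b was 13.0-fold lower in pollen (log2 difference -3.60), against 2.61-fold lower with the deposited scaling. The seedling signal of WLIM1 was 14.8-fold above the floor. Under 75th percentile scaling the log2 difference of WLIM2b was -0.78 (adjusted p = 0.0156).

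**Figure D4:**
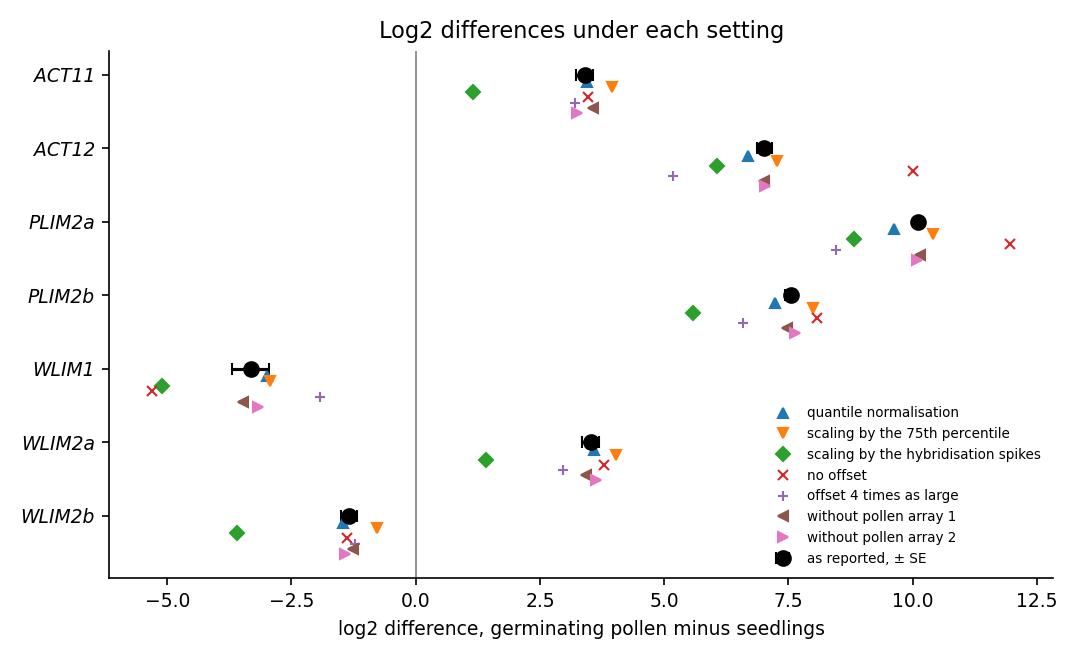
Log2 difference (germinating pollen minus seedlings) of each gene as reported, with its SE, and under other scalings, other offsets and without each pollen array. Scaling to the spiked controls (diamonds) moves all 7 genes to lower values, and no gene crosses 0; ACT11 comes nearest from above at 1.15, and WLIM2b under 75th percentile scaling nearest from below at -0.78.

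Genes that act on the same filaments were counted from a list of 63, of which 11 had a probe set that names them alone. The other 52, among them all 6 other actins, 5 profilins, 11 actin-depolymerising factors and 5 villins, were not analysed here. All 11 were tested: 5 were called higher in pollen, 2 lower and 4 did not pass, where 22.1% of all probe sets tested were called higher and 31.7% lower. AT2G04750, XIC, XIE, XIH and VIIIB were under the floor in seedlings and entered the test only through pollen, and AT5G48460 and CRK only through the seedling. Counts that include them therefore support no pattern. The list had a median log2 difference of 1.11 (1.25 with each dim tissue raised to the floor and no offset).

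Of 17 listed myosins, the motors that walk along actin, 6 were measured, 4 of them called higher in pollen and 0 lower, beside 22.1% and 31.7% over all probe sets tested. VIIIB, XIE and XIC, 3 of those 4, were tested only through the tissue in which they were high. VIIIB, a class VIII myosin, had signals of 1727 and 1815 in germinating pollen, against 8.24 in seedlings. Its pollen geometric mean was 41.8-fold above the floor (log2 difference 6.28 ± 0.15, SE; limma adjusted p = 5.71e-05). XIJ, a class XI myosin, had 861 and 696 in pollen against 50.8 in seedlings, 15.2-fold higher (limma adjusted p = 0.000693). Class XI myosins are known as the motors that move organelles in plant cells. XIE had 339 and 363 in pollen, 8.29-fold above the floor, against 16.3 in seedlings. XIC had 204 and 161 in pollen, 4.28-fold above the floor, against 24.5 in seedlings. Its call was lost under spike scaling (log2 difference 0.50, limma adjusted p = 0.27). XIH, with 88.3 and 115 in pollen against 38.8 in seedlings, and XI-I, with 101 and 109 in pollen against 148 in seedlings, did not pass. All 6 myosins had pollen signals above the floor on both arrays, but XIC, XIE, XIH and VIIIB could not have been tested otherwise.

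Of 5 listed fimbrins, which cross-link actin filaments as LIM proteins do, 3 were measured. Of these, 1 was called higher in pollen, 1 lower and 1 did not pass, beside 22.1% higher and 31.7% lower over all probe sets tested. AT5G48460 was tested only through seedlings and AT2G04750 only through pollen, so the count supports no pattern. AT5G55400 had 1250 and 1329 in pollen against 74.2 in seedlings, 17.4-fold higher (log2 difference 3.87 ± 0.13, SE; limma adjusted p = 0.00016). AT5G48460 had 2.38 and 7.09 in pollen against 92.7 in seedlings, the seedling being 2.19-fold above the floor (limma adjusted p = 0.00401, or 0.0471 with no filter on low signals). AT2G04750 did not pass, at 70.9 and 59.5 in pollen against 23.2 in seedlings.

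The remaining measured genes of the list were 1 of 4 genes of filament turnover and 1 of 9 of the Arp2/3 complex, which starts branched filaments. AT3G18060, of the turnover group, had 67.9 and 113 in pollen against 353 in seedlings, 4.02-fold lower in pollen (log2 difference -1.84 ± 0.39, SE; limma adjusted p = 0.0208). CRK, the Arp2/3 subunit ARPC5, had 6.05 and 64.3 in pollen against 57.9 in seedlings. Its pollen arrays disagreed by more than the difference between tissues, and it did not pass (limma adjusted p = 0.469).

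**Figure D5:**
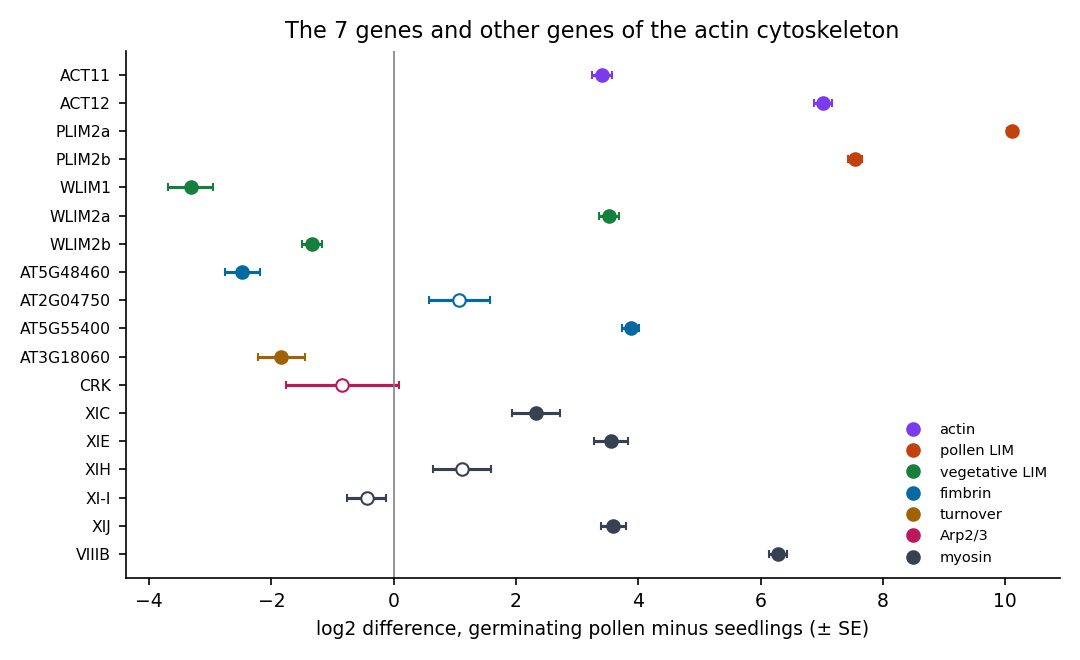
Log2 difference (germinating pollen minus seedlings, ± SE from limma) of the 7 genes and of the 11 measured genes of the actin cytoskeleton list, coloured by class. Filled circles passed the adjusted threshold and open ones did not; the 4 myosins that passed lie to the right of 0, and the measured fimbrins lie on both sides.

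The pollen arrays agreed closely on the members that were bright in pollen. Between them, ACT12, PLIM2a, PLIM2b, WLIM2a, WLIM2b and ACT11 differed by at most 0.32 log2 units, and all 6 lay in the brightest 7582 probe sets in pollen. Among those 7582 the median gap between pollen arrays was 0.25 log2 units, which ACT11 exceeded at 0.32 and the others did not. The SD between pollen arrays there was 0.35. The seedling values rest on 1 array, whose own spread was not measured and is assumed by the test to equal that of the pollen arrays.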

How the data were processed

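The authors deposited 1 linear signal intensity per probe set and array, made with MAS5, per the submitters' processing notes. GCOS 1.2 and Excel 2004 are named in the design text. The deposited intensities had equal trimmed means of 122 (2% left out at each end). Genome build and detection calls are not given in the sources used here, and scanner files were not used.

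Of 22810 probe sets, 64 controls were left out. The annotation gave 1 gene for 13513 and several for 503. Entrez identifiers were matched to the RefSeq table (TAIR10.1) for locus names only, and all 7 genes matched.

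Signals were rescaled to equal trimmed means, an offset of 14.7 (the 30th percentile) was added, and log2 values were fitted with limma 3.58.1 in R 4.3.3 (lmFit, eBayes with a variance trend, two-sided, Benjamini-Hochberg threshold 0.05, 1 residual degree of freedom). If no array of a tissue exceeded the floor, the fold is the other tissue's geometric mean over the floor. Such a fold is a lower bound on the difference between the tissues. Other folds are ratios of geometric means. Controls without a target were 27 probe sets and spikes 9. The number of arrays limits precision. The fit was tested on simulated data, where more unchanged than changed probe sets were called. Nearly all of those false calls were of probe sets dim in pollen, and far fewer were made with no filter. The simulation changed only a small set of probe sets bright in pollen, whereas 53.8% of those tested were called in these data. Its rate of false calls thus cannot be carried over. For probe sets dim in pollen, WLIM1 and AT5G48460 among them, the adjusted p may understate the rate of false calls.

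The 7 genes, the list of 63 genes and the markers were chosen with earlier results of these data known. Named beside the 7 are the measured genes of that list, and for each of the 7 the gene with the nearest profile. Alternatives were other scalings, offsets, filters, no variance trend and leaving out a pollen array. No sequences were used here.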

Additional observations from a re-analysis of the deposited data

How the results depend on the processing

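All 7 genes kept their direction and call under the 8 alternative scalings, offsets, filters and variance models. Leaving out a pollen array leaves 1 array a group, so no test and no count of calls could be made. Without 1 array the log2 differences of the 7 genes kept their sign. The 7 genes have 1 probe set each, so averaging probe sets changes nothing. No paired analysis was possible because the seedling group has 1 array. Over all probe sets, spike scaling gave 1423 higher and 11861 lower calls, against 3279 and 4692. Of 180 repeats over the 18 named genes, 5 reversed, all of genes that did not pass: AT2G04750 (-0.66) and XIH (-0.80) under spike scaling, XI-I under quantile (0.093) and 75th percentile scaling (0.070), and CRK without pollen array 1 (0.12, against -1.81 without array 2). XI-I was called lower under spike scaling (-2.57).

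The log2 changes of ratios kept their sign throughout and moved in size where dim signals entered. Raised to the floor, PLIM2a over WLIM1, WLIM2a and WLIM2b changed by 11.17, 5.27 and 10.44, and PLIM2b by 9.80, 3.91 and 9.07. With the offset they changed by 13.43, 6.59 and 11.45, and by 10.87, 4.02 and 8.88. Without either, they were 17.26, 8.18 and 13.35, and 13.38, 4.30 and 9.47. Over the summed WLIM signals they were 11.69 and 7.81. Over the 3' actin control, ACT11 changed by 9.68 (8.67 at the floor, 8.81 with the offset) and ACT12 by 16.23 (10.88 and 12.43). The pollen arrays disagreed on that control (51.9 and 10.4): without array 1 and without array 2, ACT11 changed by 11.01 and 8.36, and ACT12 by 17.39 and 15.07. Over the middle control, chosen after seeing the data, they changed by 7.08 and 13.62. Each of these ratios has a signal under the floor on at least 1 array, except ACT11 over the middle control, which was the same with signals raised to the floor.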

Other observations

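For each of the 7 genes, the gene with the most similar signals was sought among 13506 probe sets that name 1 gene, by Euclidean distance of log2(signal + 14.7) over the 3 arrays. These are descriptions of 3 arrays and say nothing of shared control. AT2G26450 lay nearest to PLIM2a, at a distance of 0.19, with 24916 and 23887 in germinating pollen against 6.01 in seedlings. AT5G65530 lay nearest to PLIM2b, at 0.29, with 8197 and 8113 in pollen against 25.2 in seedlings. AT5G16880 lay nearest to ACT11, at 0.29, and AT4G15650 to ACT12, at 0.17. Among the WLIM genes, AT4G39860 lay nearest to WLIM2a, at 0.24, AT3G58730 to WLIM2b, at 0.23, and AT5G10690 to WLIM1, at 0.12. By the same measure the closest pair among the 7 genes was PLIM2a and PLIM2b, at 2.28. WLIM2a lay nearer to ACT12 (2.86) and ACT11 (3.01) than to WLIM2b (3.98) or WLIM1 (7.99). This distance takes in the brightness of each probe set, so it does not rank genes by their difference between tissues. WLIM2a and ACT11 had log2 differences of 3.52 and 3.40, whereas that of ACT12 was 7.02. Each of the 7 genes lay nearer to a gene outside the 7 than to any other of the 7. The outside gene was the nearest of 13506 probe sets, so a closer match there was likely beforehand. It does not show how alike the 7 genes are.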
